A study of Homo sapiens with 4 samples.

Results

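The 45 genes described here encode subunits of ATP-dependent chromatin remodelling complexes. They were taken from a list of SWI/SNF, ISWI, CHD, NuRD and INO80 family genes, and every probe set annotated to a listed gene alone was used. This gave 151 of 54675 probe sets for 45 of the 19775 genes that could be measured this way. On 1 or more arrays, all 45 genes and 139 of the 151 probe sets had a log2 level of 6 or above. The cells were SUM159, a long-established line of human breast cancer cells with a mesenchymal character. All 4 groups carried pTRIPZ-SUM159-mir-100, an inducible miR-100 construct, and all were sorted on ALDH status, an activity used to enrich stem-like breast cancer cells, and kept in suspension for 10 h. The groups were ALDH-positive cells with DOX, ALDH-positive control cells without it, ALDH-negative cells with DOX and ALDH-negative control cells. DOX is doxycycline in the titles and the treatment protocol, but the sample descriptions give doxorubicin, another drug, and 13 h. Each group had 1 array, so that differences between 2 arrays are sizes with no p-value, and fewer cells of a type cannot be told apart from less RNA per cell. The stated question was which cellular targets miR-100 has in stem-like and other breast cancer cells.

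Remodelling complexes use the energy of ATP to slide, evict or exchange nucleosomes, and so set which DNA is open to transcription, replication and repair. SWI/SNF complexes are built around the ATPases SMARCA4 or SMARCA2 and come in BAF, PBAF and ncBAF forms, ISWI complexes space nucleosomes, NuRD couples a CHD-type motor to histone deacetylases, and the INO80 family exchanges histone variants. ARID1A and other SWI/SNF subunits are often mutated in cancer.

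The construct expresses the microRNA whose arms are shown here because its seed defines what it can pair with. Both sequences are from RefSeq (GRCh38.p14, minus strand, chr11:122152275-122152296 for the 5p arm and chr11:122152240-122152261 for the 3p arm), and capitals mark the seed, bases 2 to 8.
hsa-miR-100-5p: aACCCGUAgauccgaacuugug
hsa-miR-100-3p: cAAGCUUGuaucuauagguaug
The arrays do not measure the mature microRNA, and whether DOX induced it could not be seen.

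The promoter windows of 4 subunits are shown because these genes had the differences of 2-fold or more described below. MBD3 and CHD2 differed between the ALDH fractions, and ARID1B and RBBP4 between DOX and control in ALDH-positive cells. Each window holds the 250 bases before the first start that RefSeq lists for the gene (GRCh38.p14), at chr19:1592866-1593115 on the minus strand for MBD3 and on the plus strand at chr15:92900074-92900323 for CHD2, chr6:156775776-156776025 for ARID1B and chr1:32650958-32651207 for RBBP4. Capitals mark matches on either strand to 6 motifs, the CCAAT box (CCAAT), an ETS core (CCGGAAG), an NRF1 core (GCATGCG), a YY1 core (AGATGGC), an E2F core (TTGGCGC) and an AP-1 site (TGANTCA).
MBD3: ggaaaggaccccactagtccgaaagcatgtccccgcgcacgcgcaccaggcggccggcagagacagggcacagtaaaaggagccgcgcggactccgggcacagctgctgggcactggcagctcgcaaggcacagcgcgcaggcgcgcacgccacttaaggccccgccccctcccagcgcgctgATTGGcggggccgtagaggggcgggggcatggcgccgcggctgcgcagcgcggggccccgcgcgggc
CHD2: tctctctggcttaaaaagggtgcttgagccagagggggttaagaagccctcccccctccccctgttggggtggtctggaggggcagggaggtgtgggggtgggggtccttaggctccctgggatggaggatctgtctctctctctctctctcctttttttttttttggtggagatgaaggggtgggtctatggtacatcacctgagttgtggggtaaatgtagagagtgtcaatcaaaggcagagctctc
ARID1B: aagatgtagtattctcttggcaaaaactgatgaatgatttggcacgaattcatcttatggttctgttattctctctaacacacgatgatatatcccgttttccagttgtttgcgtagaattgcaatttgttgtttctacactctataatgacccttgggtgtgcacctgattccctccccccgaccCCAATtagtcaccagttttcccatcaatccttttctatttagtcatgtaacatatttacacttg
RBBP4: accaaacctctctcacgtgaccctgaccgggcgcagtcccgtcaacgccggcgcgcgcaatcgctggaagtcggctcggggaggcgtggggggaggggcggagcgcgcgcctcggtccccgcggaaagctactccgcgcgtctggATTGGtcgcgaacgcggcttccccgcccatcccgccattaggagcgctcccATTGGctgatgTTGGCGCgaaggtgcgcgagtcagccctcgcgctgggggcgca

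The windows differed in composition. MBD3 had 74.8% G or C and 32 CpG sites in 250 bases, RBBP4 71.2% and 37, CHD2 54.8% and 0, and ARID1B 38.8% and 5. ARID1B and RBBP4 each had a second listed start, which was not used. Over the 36 members with a window the median was 68.6% G or C and 26 CpG sites, against 58% and 11 over the first-listed windows of 27305 genes. RBBP4 held 3 matches, 2 of the CCAAT box and 1 of the E2F core, MBD3 and ARID1B held 1 CCAAT box each, and CHD2 held 0. A CCAAT box was in 15 of the 36 member windows (41.7%) and in 33% of all windows. The ETS core was in 3 (8.33%, against 8.82%), the E2F core in 2 (5.56%, against 2.63%), the YY1 core in 1 (2.78%, against 3.4%), the AP-1 site in 1 (2.78%, against 6.6%) and the NRF1 core in 0 (against 3.57%). A match of letters describes the window and is no evidence of binding.

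The cells had the mesenchymal markers of SUM159. All 5 such genes looked at, among them VIM and ZEB1, lay between 11.07 and 13.79 on the log2 scale on every array, and 4 of 5 epithelial and receptor genes with low levels in such cells were under 6, with ERBB2 the exception at 9.22 to 10.17. Of 11 markers of other cell types, 8 had a probe set and 2 reached a level of 6. These were the endothelial PECAM1, at 7.56 in ALDH-positive DOX and 5.96 in ALDH-positive control, against 9.62 in ALDH-negative DOX and 9.77 in ALDH-negative control cells, and the globin gene HBB at 5.62 to 6.98. The immune markers PTPRC, CD3E, CD14 and LYZ stayed between 3.66 and 5.30. The summed linear signal of the 8 was 422 in ALDH-positive DOX and 344 in ALDH-positive control, against 963 in ALDH-negative DOX and 1061 in ALDH-negative control cells, and its part in the results was not tested.

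All 45 subunits were measured above the level of 6 in these cells, and most differed little between arrays on their representing probe sets. The range over the 4 arrays had a median of 0.38 log2 over the subunits, against 0.60 over the 12365 genes at a level of 6. These genes are not matched for level. At a mean level of 9 or more, the median size of the DOX difference in ALDH-positive cells was 0.28 over 40 subunits and 0.26 over 7520 genes. In ALDH-negative cells it was 0.06 and 0.07. For the ALDH difference it was 0.17 and 0.28 in control cells, and 0.31 and 0.35 in DOX cells. For 11 subunits the range was under 0.25, among them BRD7, a bromodomain subunit of PBAF, with a range of 0.02, the AAA+ ATPase RUVBL1 of the INO80 and SRCAP complexes with 0.04, and the histone-binding RBBP7 with 0.08. These ranges hold for the representing sets alone. Also among the 11 were BAZ1B, PBRM1, MTA1, HDAC2 and EP400, each with another set that reached 2-fold in some comparison. Between the fractions in DOX cells, 1 set of BAZ1B was at -1.07, 1 of PBRM1 at -1.48 and 1 of MTA1 at 1.84. Of the 4 BRD7 sets, 3 were lower in ALDH-positive than in ALDH-negative control cells, the lowest at -1.21. That comparison reached -1.04 in DOX cells. The ALDH-positive DOX array was the array that most often stood at an end of the range. It was the lowest of the 4 for 18 subunits (40.0%) and the highest for 15 (33.3%), against 26.1% and 41.9% of all genes.

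**Figure D1:**
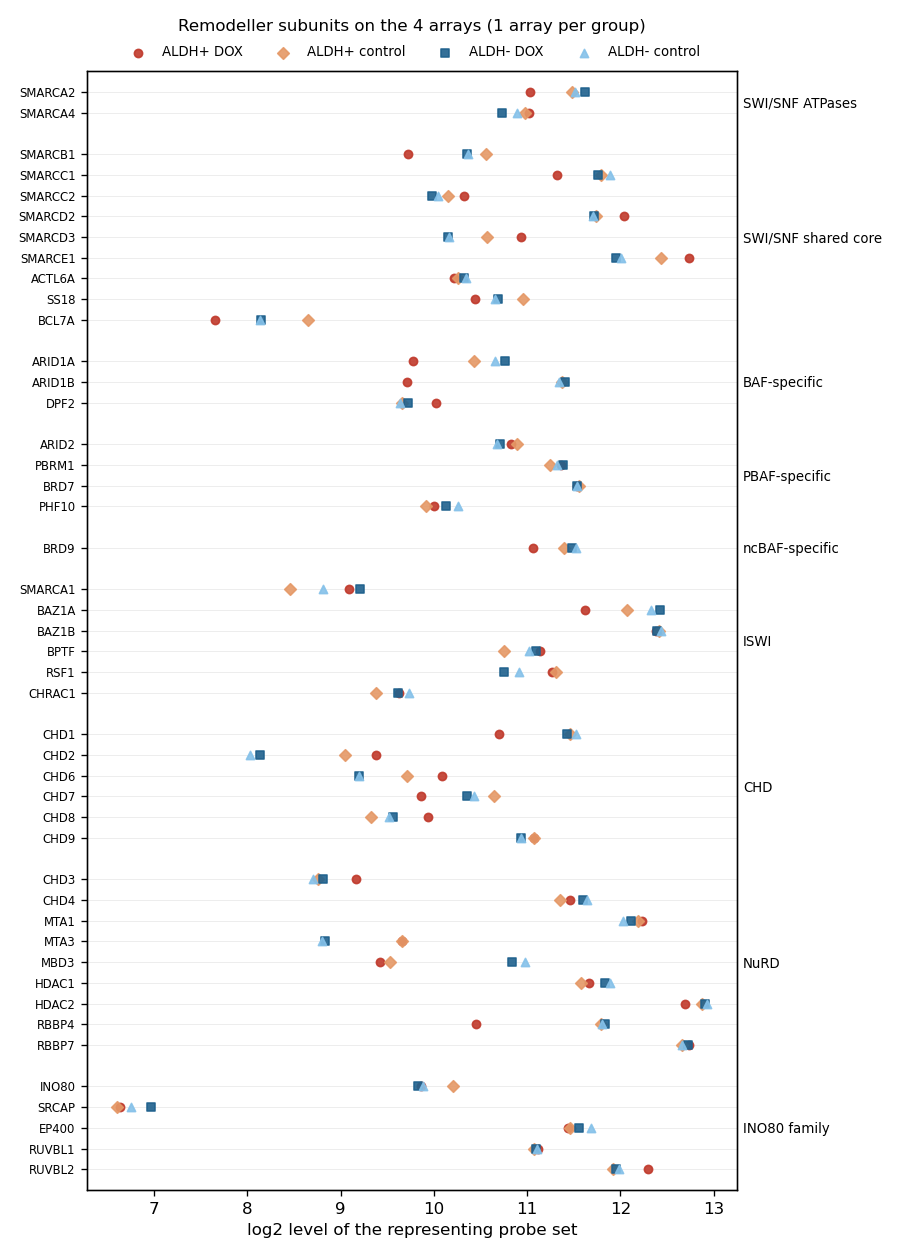
The log2 level of the probe set that represents each of the 45 subunits (x axis) is plotted on the 4 arrays, 1 array per group, with the genes ordered by complex down the page. The ALDH-positive DOX point of ARID1B at 9.71 and of RBBP4 at 10.46 lie apart from the other 3 arrays, and both ALDH-positive points of MBD3 lie below both ALDH-negative points.

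DOX in ALDH-positive cells went with lower signal from the representing sets of ARID1B and RBBP4, and with small differences in most other subunits. Other sets of both genes disagreed. With all sets of a gene averaged, both were at -0.25 and 0 subunits were called. A subunit was called where it differed 2-fold or more (1 on the log2 scale) and either array reached 6. By that rule 0 of 45 subunits were higher, where 3.47% of the 12151 genes compared were, and 2 of 45 were lower, where 2.3% were. Both counts are near the background. With each array centred on the median of the genes at a level of 6, an alternative chosen after seeing the data, the split over all genes was 264 higher and 387 lower, against 422 and 280 without it, and 3 subunits were lower, BCL7A with them, as it lies just short of 2-fold otherwise. The median over the 45 was -0.00, against 0.12 over all genes, and -0.13 with that centring. At 0.5 or more on the log2 scale 8 subunits were lower (17.8%, against 8.79% of all genes) and 2 were higher (4.44%, against 19.3%). Among the 7520 genes with a mean level of 9 or more, a limit chosen after the levels were seen, these shares were 8.87% lower and 12.8% higher, and of the 40 subunits above it 7 were lower and 1 was higher.

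In the BAF form of SWI/SNF, 1 of the 3 subunits listed, ARID1B, was called. ARID1B, a paralogue of ARID1A that takes its place in the complex, was at 9.71 (log2) in ALDH-positive DOX and 11.38 in ALDH-positive control cells, and 11.40 in ALDH-negative DOX and 11.34 in ALDH-negative control cells. The ALDH-positive DOX array stood alone below the other 3, and its difference of -1.67 was the lowest of the 45. ARID1A was at 9.78 in ALDH-positive DOX and 10.43 in ALDH-positive control cells, a difference of -0.65, and at 10.76 and 10.66 in ALDH-negative DOX and control cells. DPF2, a histone reader of the same form, went the other way with 0.36. The ARID1B value rested on 1 of 6 probe sets at a level of 6. The other 5 ranged from -0.66 to 0.77, and the mean of the gene's probe sets was at -0.25. For ARID1A the 2 other probe sets at that level were at 0.00 and 0.08.

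RBBP4, a histone chaperone subunit shared by NuRD, NURF, the CAF-1 chaperone and Polycomb complexes, was at 10.46 in ALDH-positive DOX and 11.80 in ALDH-positive control cells, a difference of -1.34. It was at 11.83 in ALDH-negative DOX and 11.80 in ALDH-negative control cells, so that again the ALDH-positive DOX array stood alone. Its 6 probe sets split. The representing set was at -1.34 and another at -1.57, a further set was at -0.31, and the remaining 3 were at 0.53, 0.58 and 0.64. The 2 lowest carry the name endings _s_at or _x_at, which mark sets that can hybridise to several transcripts, and without such sets RBBP4 was at 0.53. No direction for the gene as a whole follows from these sets. Its close paralogue RBBP7, with a single probe set, was at 12.74 in ALDH-positive DOX and 12.66 in ALDH-positive control cells.

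The SWI/SNF core went both ways in ALDH-positive cells. BCL7A, an accessory subunit, was at 7.65 with DOX and 8.65 in the control, a difference of -0.998 that was just short of 2-fold, while its second probe set was at -0.03. The core subunit SMARCB1, a tumour suppressor, was at 9.73 and 10.56, with a difference of -0.84, but 1 of its 2 other probe sets was at 0.58. SS18, which is fused to SSX genes in synovial sarcoma, differed by -0.52, and all 4 of its probe sets were below 0, from -1.73 to -0.29. The scaffold subunit SMARCC1 differed by -0.47, also with all 4 probe sets below 0, and its paralogue SMARCC2 by 0.16 with all 3 above 0. SMARCD3 was at 0.36, SMARCE1 at 0.30 and SMARCD2 at 0.30, and the actin-related ACTL6A at -0.05. The ATPase SMARCA2 differed by -0.45, with 5 of 6 probe sets below 0 and 2 of them 2-fold lower, while its alternative SMARCA4 was at 0.04 with 8 of 9 probe sets above 0. In PBAF, the chromatin targeting subunits ARID2, PBRM1, BRD7 and PHF10 all lay between -0.06 and 0.12, although 1 of 5 PBRM1 probe sets was at -1.38. BRD9, the bromodomain subunit of ncBAF, was at -0.33.

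Among the ISWI and CHD remodellers, differences of ALDH-positive cells reached 0.62 upward and -0.78 downward. SMARCA1, an ISWI ATPase, was the highest of the 45, at 9.09 with DOX and 8.46 in the control (0.62), but 1 of its 3 probe sets was at -0.998. BAZ1A, which pairs with the ISWI motor in the ACF and CHRAC complexes, differed by -0.45, and CHRAC1, a histone-fold subunit of CHRAC, by 0.25. BPTF, the histone-reading subunit of NURF, was at 0.38 and RSF1, an ISWI partner, at -0.05. BAZ1B, the Williams syndrome transcription factor, was at -0.03 on its representing set, and its 3 other sets were at -0.76, -0.90 and -0.99. CHD7, the gene of CHARGE syndrome, differed by -0.78 with its 2 other sets at -1.20 and 0.20, and CHD1, a motor linked to transcription elongation, by -0.76 with both its probe sets below 0. CHD8, mutated in a form of autism, had 1 probe set and was at 9.94 with DOX and 9.33 in the control (0.62). CHD9 was at -0.00, CHD6 at 0.37 and CHD2 at 0.33. NuRD subunits other than RBBP4 lay between -0.18 for the deacetylase HDAC2 and 0.41 for CHD3, and INO80 family genes between -0.35 for INO80 and 0.38 for RUVBL2, whose 2 probe sets at a level of 6 were both above 0. EP400, the motor of the TIP60 complex, was at -0.02 on its representing set and at 0.22, -0.79 and -1.18 on the others. SRCAP, which deposits the histone variant H2A.Z, was at 0.03 on its representing set and at -1.23 on its second.

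Probe sets of the same subunit often disagreed in this pair of arrays. Of 35 subunits with 2 or more probe sets at a level of 6, 13 had sets that lay 1 log2 unit or more apart and 12 had all sets on 1 side of 0. The differences of the 2 brightest sets were a median of 0.51 apart over the 35 subunits, against 0.33 over the 6630 genes with 2 such sets. In the ALDH-negative pair the same gap was 0.11 for the subunits and 0.11 for all genes. Over 139 member probe sets, 10 were 2-fold lower (7.19%, against 5.78% of the 24213 probe sets annotated to 1 gene) and 0 were 2-fold higher (against 3.28%). Control probe sets moved in the same pair. The sets of 18S ribosomal RNA differed by -1.9 at the 3' end, -0.30 in the middle and -1.94 at the 5' end. Those of ISGF3A were at 0.05 at the 3' end, -1.20 and -0.77 in the middle and -0.67 at the 5' end. The sets of ACTB differed by -0.07 at the 3' end, -0.67 in the middle and -0.46 at the 5' end, while those of GAPDH were at 0.16, 0.25 and 0.39. Their part in the subunits' values was not tested.

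**Figure D2:**
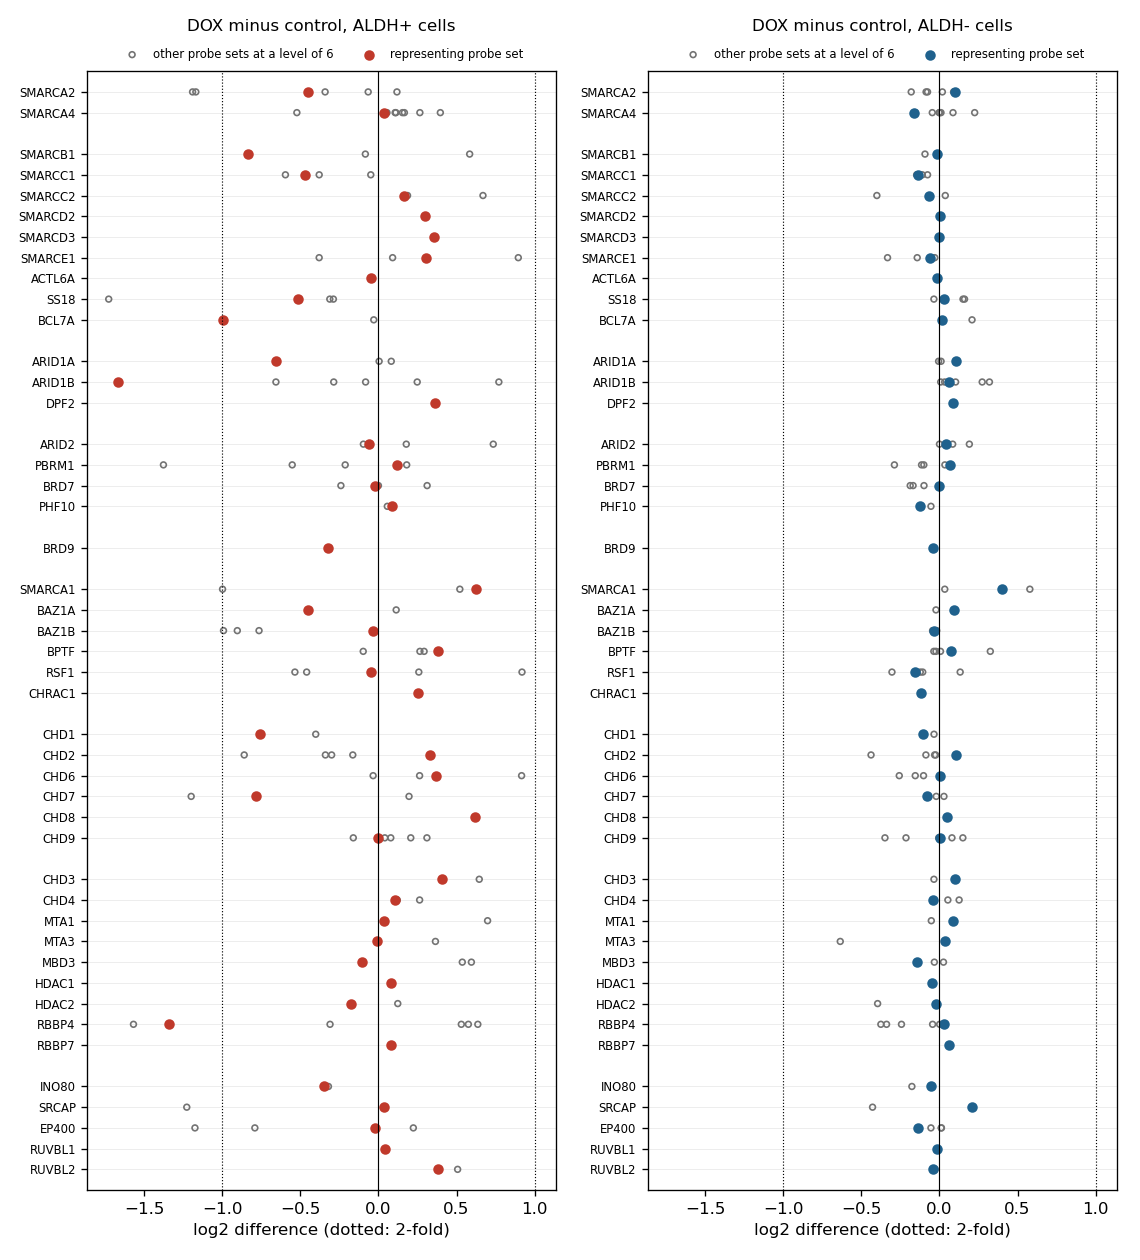
The log2 difference of DOX minus control (x axis) is plotted for ALDH-positive cells on the left and ALDH-negative cells on the right, with filled points for the probe set that represents each subunit and open points for its other sets at a level of 6. Dotted lines mark 2-fold, which the filled points of ARID1B and RBBP4 pass in ALDH-positive cells, as do some open points. No subunit passes it in ALDH-negative cells.

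DOX in ALDH-negative cells left the subunits close to their control. None of the 45 was called in either direction, where 0.271% of 11819 genes were higher and 0.0508% lower, so that a count of 0 is what the background leads to. The differences lay between -0.16 for SMARCA4 and 0.40 for SMARCA1, with a median of -0.00, and 0 subunits reached 0.5. SMARCA4 was at 10.73 in ALDH-negative DOX and 10.89 in ALDH-negative control cells, against 11.02 and 10.98 in ALDH-positive DOX and control cells. SMARCA1 was at 9.21 in ALDH-negative DOX and 8.81 in ALDH-negative control cells, and its 3 probe sets at a level of 6 were at 0.03, 0.40 and 0.58. It was the highest subunit in both fractions by its representing set. The DOX differences of the fractions, which share no array, had a Pearson's r of 0.14 over the 45 subunits and a Spearman's rho of 0.17, and 25 of 45 had the same sign, against 53.0% of all genes. Genes are not independent samples, and this is a description.

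The DOX differences of the fractions were set against each other by subtraction, the ALDH-positive difference minus the ALDH-negative one. By size, 3 of 45 subunits were lower by 1 or more (2.4% of 12365 genes) and 0 were higher (3.78%). Over all genes 468 were higher and 297 lower, against 295 and 440 with the added centring. Without that centring the 3 lower subunits were ARID1B with -1.73, RBBP4 with -1.37 and BCL7A with -1.01. CHD8 was the highest at 0.57, with 9.56 in ALDH-negative DOX and 9.51 in ALDH-negative control cells. This rests on single arrays and was not tested.

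An additive limma model over the 4 arrays, in which the fractions repeat each other, tested the mean DOX difference. At a Benjamini-Hochberg adjusted p under 0.05, 0 of 45 subunits rose and 0 fell, where 0.00809% of 12365 genes rose and 0% fell. At an unadjusted p under 0.05 there were 0 subunits above 0 and 3 below it, where 368 and 284 of the 12365 genes were. ARID1B had a mean difference of -0.81 ± 0.31 (SE, limma adjusted p = 0.855), RBBP4 -0.66 ± 0.25 (limma adjusted p = 0.855) and CHD1 -0.43 ± 0.19 (limma adjusted p = 0.916). The model counts any unlike response of the fractions as error. Each SE is shrunk by limma toward that of other genes, with 1 residual and 11.6 prior degrees of freedom. The SEs of ARID1B and RBBP4 are thus mostly borrowed, and do not cover how far the fractions differed, -1.73 and -1.37 by subtraction.

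On representing probe sets, ALDH-positive and ALDH-negative control cells differed most in the NuRD subunit MBD3 and the remodeller CHD2. Some other sets differed more, such as 1 of HDAC2 at -2.40 and 1 of SMARCE1 at -1.89 in control cells. Of the 45 subunits, 1 was 2-fold higher in ALDH-positive control cells, where 6.09% of 12052 genes were, and 1 was 2-fold lower, where 4.4% were. Both shares lie below the background. At 0.5 or more, 5 subunits differed (11.1%, against 32.0% of all genes). Among genes with a mean level of 9 or more it was 3 of 40 subunits (7.5%) and 25.7% of 7520 genes. The median was -0.01 over the subunits and -0.00 over all genes.

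MBD3, a methyl-CpG-binding domain protein that organises NuRD, was at 9.43 in ALDH-positive DOX and 9.53 in ALDH-positive control cells, against 10.83 in ALDH-negative DOX and 10.97 in ALDH-negative control cells. Both ALDH-positive arrays were below both ALDH-negative arrays, with differences of -1.44 in control and -1.41 in DOX cells. MBD3 fell by 1.42 on the log2 scale in ALDH-positive cells (SE 0.22, limma adjusted p = 0.000883). Its 2 other probe sets were at -0.73 and -0.34 in control cells, and at -0.10 and 0.17 in DOX cells. The representing set is of the kind that can hybridise to several transcripts, and without such sets the mean difference was -0.42 and did not pass.

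CHD2, a CHD-family motor linked to transcribed chromatin and to epilepsy when mutated, was at 9.38 in ALDH-positive DOX and 9.05 in ALDH-positive control cells, against 8.14 in ALDH-negative DOX and 8.03 in ALDH-negative control cells. The fractions did not overlap, and the differences were 1.02 in control and 1.24 in DOX cells. CHD2 rose by 1.13 on the log2 scale in ALDH-positive cells (SE 0.27, limma adjusted p = 0.00943). The CHD2 call was lost without a filter on level. All 5 of its probe sets at a level of 6 were above 0 in control cells, from 0.02 to 1.5, with 4 of them 2-fold higher. In DOX cells the 5 lay between 0.29 and 1.24. CHD6, of the same family, was higher by 0.52 in control and 0.88 in DOX cells, with a limma adjusted p of 0.0614. In DOX cells its 4 probe sets lay between 0.88 and 1.06, with 3 of them 2-fold higher. In control cells they lay between -0.07 and 0.83, with 0 of them 2-fold higher.

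The additive model tested the mean ALDH difference over both treatments. Of 45 subunits 3 rose in ALDH-positive cells (13.5% of 12365 genes did) and 2 fell (9.58% did). The subunits that rose were CHD2, SMARCE1 and MTA3. SMARCE1, the HMG-box subunit of SWI/SNF, was at 12.74 in ALDH-positive DOX and 12.43 in ALDH-positive control cells, against 11.95 in ALDH-negative DOX and 12.01 in ALDH-negative control cells (0.61 ± 0.13, SE, limma adjusted p = 0.00532). Its other probe sets did not follow: in control cells they were at -0.14, -1.06 and -1.89, and the mean of its sets gave -0.48. The SMARCE1 call was also lost without a filter on level and without the trend. MTA3, a NuRD scaffold subunit first described in breast cells as a link to SNAI1 repression, was at 9.65 in ALDH-positive DOX and 9.66 in ALDH-positive control cells, against 8.84 in ALDH-negative DOX and 8.80 in ALDH-negative control cells (0.84 ± 0.25, SE, limma adjusted p = 0.0319), and its second probe set was 2-fold higher in DOX cells but at 0.00 in control cells. The MTA3 call was lost without a filter on level, with levels under 6 set to 6, with averaged sets (0.67) and without sets shared between transcripts (0.50). BAZ1A fell by 0.54 on the log2 scale (SE 0.15, limma adjusted p = 0.0207), with 11.62 in ALDH-positive DOX and 12.07 in ALDH-positive control cells, against 12.42 in ALDH-negative DOX and 12.33 in ALDH-negative control cells, and the other BAZ1A set was at -0.34 in control and -0.21 in DOX cells. The BAZ1A call was lost with averaged sets (-0.41), without a filter, without the trend and with the added centring. It could not be examined without sets shared between transcripts, since all BAZ1A sets are of that kind. Signs of RNA quality differed between the same fractions: the 3' minus 5' log2 value of GAPDH was 0.33 in ALDH-positive DOX and 0.56 in ALDH-positive control, against 0.98 in ALDH-negative DOX and 0.87 in ALDH-negative control cells. That of ACTB was 3.5 in ALDH-positive DOX and 3.11 in ALDH-positive control, against 3.87 in ALDH-negative DOX and 3.70 in ALDH-negative control cells. Their part in the ALDH results was not tested.

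Among NuRD paralogues, MTA3 differed by 0.86 in control and 0.82 in DOX cells, while MTA1, another scaffold subunit, was at 0.16 and 0.11 on its representing set and at 1.09 and 1.84 on its second. The motors CHD4 (-0.29 in control, -0.14 in DOX cells) and CHD3 (0.04 and 0.35) and the deacetylases HDAC1 (-0.31 and -0.18) and HDAC2 (-0.06 and -0.21) did not pass the test. The second HDAC2 probe set was at 7.07 in ALDH-positive DOX and 6.94 in ALDH-positive control cells, against 8.95 in ALDH-negative DOX and 9.35 in ALDH-negative control cells. SMARCD3, an SWI/SNF subunit known for its role in heart and muscle, was at 10.93 in ALDH-positive DOX and 10.57 in ALDH-positive control cells, against 10.15 in ALDH-negative DOX and 10.16 in ALDH-negative control cells, and its limma adjusted p was 0.0672. Members of the PBAF form and the INO80 family did not pass, with smallest adjusted p of 0.51 and 0.477 by limma.

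The ALDH comparison in DOX cells held 1 subunit that was 2-fold higher (11.4% of 12228 genes) and 3 that were lower (5.32%). Over all genes 1396 were higher and 650 lower, against 1124 and 843 with the added centring, which gave 4 lower subunits. Without that centring the higher subunit was CHD2 (1.24), and the 3 lower ones were ARID1B (-1.70), MBD3 (-1.41) and RBBP4 (-1.38). ARID1B and RBBP4 differed by 0.03 and -0.01 between the fractions in control cells. The ALDH-positive DOX array that sets these values also sets the DOX differences above, so that they are no separate support. Across the 45 subunits the ALDH differences in control and DOX cells, which share no array, correlated with r = 0.58 and rho = 0.48, against 0.74 and 0.69 over 12365 genes, and 33 of 45 had the same sign (73.3%, against 73.3% of all genes).

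**Figure D3:**
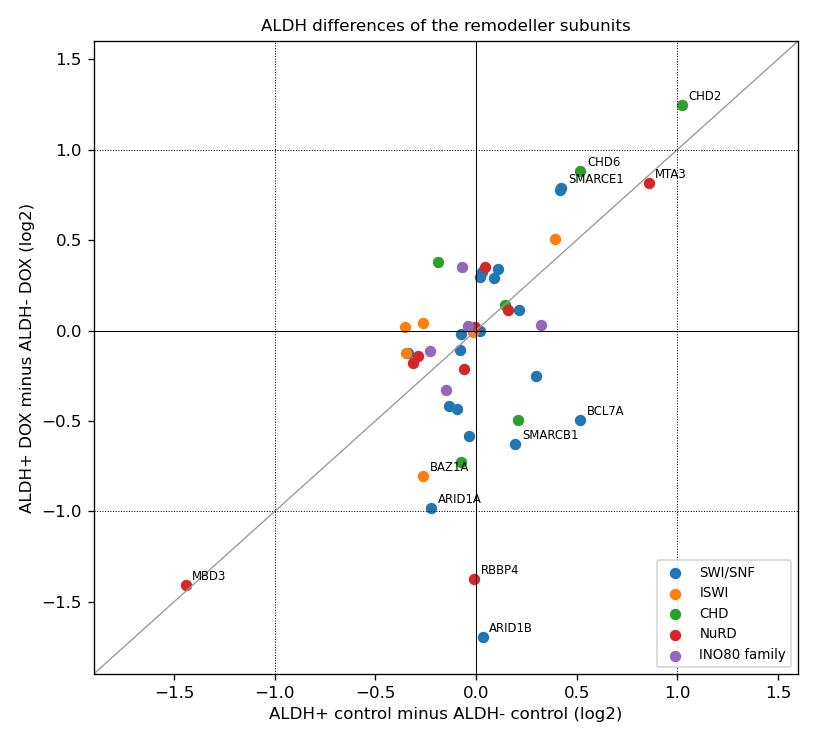
Each point is 1 of the 45 subunits, with its log2 ALDH-positive minus ALDH-negative difference in control cells on the x axis and in DOX cells on the y axis, coloured by complex family, and dotted lines mark 2-fold. MBD3 and CHD2 lie near the diagonal at -1.44 and -1.41 and at 1.02 and 1.24, while ARID1B and RBBP4 differ in the DOX arrays and lie near 0 on the x axis.

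**Figure D4:**
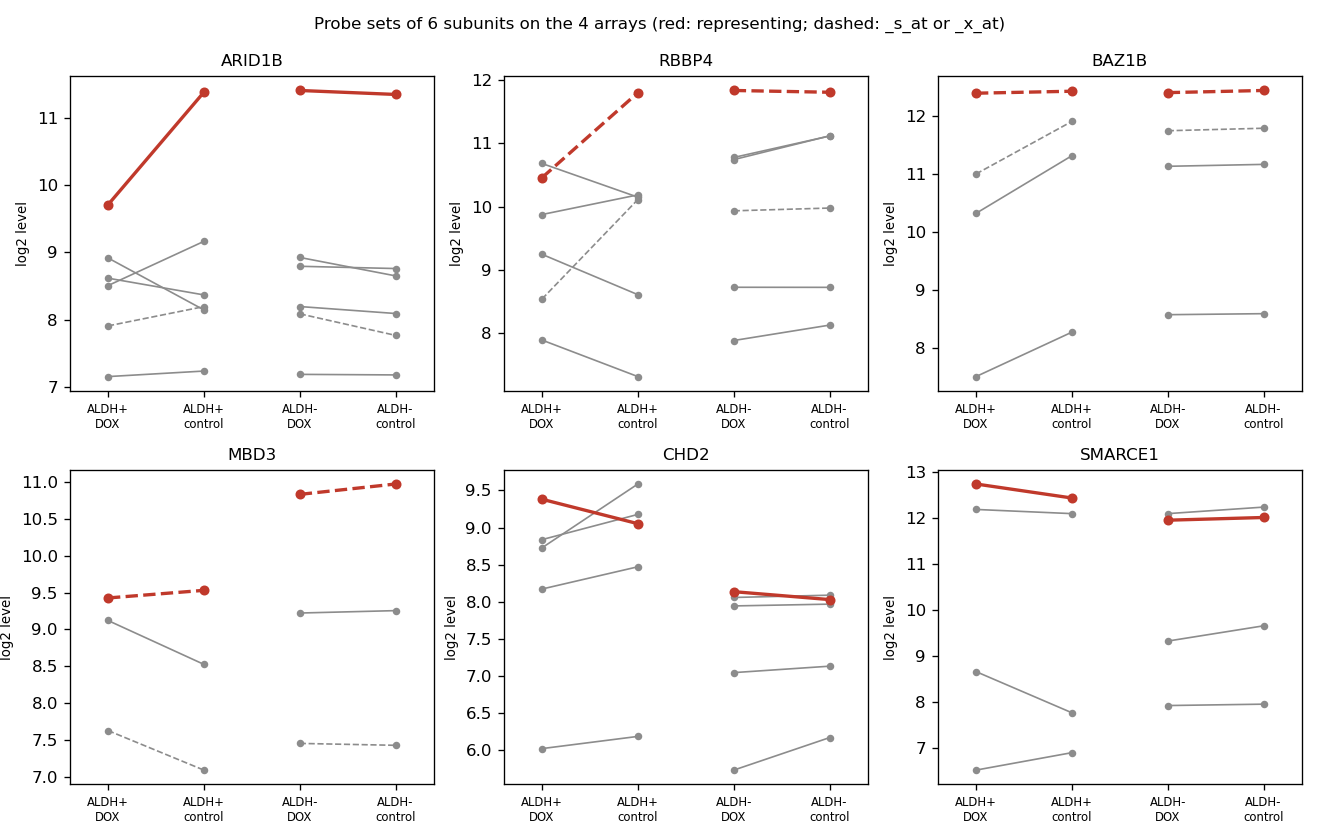
The log2 level of each probe set at a level of 6 is plotted on the 4 arrays for 6 subunits, with the representing set in red, other sets in grey, dashed lines for sets ending in _s_at or _x_at, and lines joining the DOX and control arrays of a fraction. In ALDH-positive cells the RBBP4 sets cross, all 4 BAZ1B sets are below their control with DOX, 3 of them by -0.76 to -0.99, and the 4 brightest CHD2 sets lie higher than in ALDH-negative cells.

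Another 51 remodeller genes were set beside the 45, and 48 of them were at a level of 6. In the DOX comparison of ALDH-positive cells 0 of 48 were higher and 1 was lower, where 2.3% of all genes were lower. This was the NuRD scaffold MTA2, at 4.17 in ALDH-positive DOX and 6.86 in ALDH-positive control cells (-2.69), against 7.20 and 7.09 in ALDH-negative DOX and control cells. Its single probe set lay under 6 with DOX, so that the size is uncertain. In ALDH-negative cells 0 of 47 were called, where 0.271% of all genes were higher and 0.0508% lower. Between the fractions 2 of 48 rose and 7 fell in the additive model, where 13.5% and 9.58% of all genes did. CECR2, a bromodomain partner of ISWI motors, rose by 2.80 (SE 0.29, limma adjusted p = 4.19e-05), with 7.44 in ALDH-positive DOX and 7.58 in ALDH-positive control cells, against 4.83 in ALDH-negative DOX and 4.58 in ALDH-negative control cells, where it was under the level of 6. INO80B rose too (1.04), and INO80C (-1.38), MTA2 (-1.63), POLE3 (-0.88), HELLS (-0.79), UCHL5 (-0.74), NFRKB (-0.57) and CDK2AP1 (-0.48) fell. The MTA2 term came from DOX cells, at -3.02 there and -0.23 in control cells. It rests on the ALDH-positive DOX array that sets the DOX difference of MTA2, and is no separate support. The reported miR-100 targets SMARCA5, the main ISWI motor, and SMARCD1 differed with DOX by -0.23 and -0.63 in ALDH-positive and by -0.09 and -0.26 in ALDH-negative cells.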

How the data were processed

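RNA of SUM159 cells was hybridised to Affymetrix expression arrays, 1 array for each of 4 groups. The deposited values are log2 probe set levels, which the authors made with RMA per the submitters' processing notes, its version not given in the sources used here. They were used without further scaling. Array annotation of 2016 gave 41097 probe sets 1 gene, and symbols were updated by gene identifier (RefSeq, GRCh38.p14). The probe set annotated to a gene alone with the highest mean over the 4 arrays represented it.

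Differences were called at 2-fold where any array compared reached a level of 6. The additive model (terms ALDH fraction and DOX, limma 3.58.1, eBayes with trend, R 4.3.3) ran on 12365 genes with 1 residual and 11.6 prior degrees of freedom, was checked on simulated data, and was adjusted by Benjamini and Hochberg. The simulated noise had the spread of the ALDH-negative pair, whose median size was 0.09, against 0.30 in the ALDH-positive pair. It held no unlike response of the fractions, so that the check does not cover such responses. P-values rest on how far these single arrays vary, mostly in other genes. That variation may be technical, and the number of arrays limits the precision. Members, lists and tests were chosen with earlier results of these data known. All 45 members could be named. Values on all arrays were to be given for members called in a comparison or passing the model and for the ends of each comparison, and others as examples. The 6 promoter motifs and 4 windows shown, the further members whose array values are given, and the limit of 9 on the mean level were chosen after values were seen. Alternatives were array centring, no filter on level, a floor at 6, averaging all probe sets of a gene, omitting sets ending in _s_at or _x_at, a size of 1.5-fold and eBayes without trend. Centring on the genes at a level of 6 was added after the data were seen.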

Additional observations from a re-analysis of the deposited data

Results flagged for a closer look

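In 3 subunits the DOX difference was 1 or more lower in ALDH-positive than in ALDH-negative cells on the log2 scale, and the single arrays of the fractions went opposite ways. The values were -1.73 for ARID1B, -1.37 for RBBP4 and -1.01 for BCL7A. In ALDH-negative cells these genes differed by 0.06, 0.03 and 0.02, all under the median size of 0.09 over all genes there. The difference between the fractions was not tested, since each group held 1 array.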

How the results depend on the processing

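Over the alternatives, 77 counts stayed within 1.5 times of the reported one and 21 did not. The 2-fold counts of subunits could not change without a filter or with a floor at 6, as every representing set lay above 6. A kept count can also hold other genes. Without sets ending in _x_at or _s_at, the 3 lower between the fractions in DOX cells were SMARCA2 (-1.21), ARID1B (-1.70) and BRD7 (-1.04). MBD3 was then at -0.10 and RBBP4 at -0.06. The 1 lower in control cells with averaged sets was not MBD3 (-0.84). With all probe sets of a gene averaged, 0 subunits were lower with DOX in ALDH-positive cells, 0 were higher between the fractions in control or DOX cells, 1 was lower between the fractions in DOX cells, and 0 had a lower DOX difference in ALDH-positive cells. Without sets ending in _x_at or _s_at, which leaves 35 subunits, 2 were higher between the fractions in DOX cells, and the difference of DOX differences had 1 higher and 1 lower. RBBP4 then reversed, to 0.53 for DOX in ALDH-positive cells and 0.91 for the difference of differences. SMARCE1 reversed to -0.48 in the additive model with averaged sets. At 1.5-fold, 2 subunits were higher and 7 lower with DOX in ALDH-positive cells (14.6% and 6.82% of all genes), 2 higher between the fractions in control cells (13.8%), 5 higher and 7 lower in DOX cells (22.9% and 12.6%), and 7 lower in the difference of differences (7.5%). Centring on all probe sets left 0 higher in control cells, since CHD2 lies close to 2-fold. In the additive model, 1 subunit fell in ALDH-positive cells with averaged sets, without shared sets, without trend, without a filter and with the centring added after seeing the data, and without a filter 0 rose. With averaged sets that 1 was neither MBD3 nor BAZ1A. Without shared sets it was not MBD3, and BAZ1A dropped out, as all its sets are shared ones. Apart from these constructions the cause was not tested. No paired analysis was possible because the groups hold 1 array each, with no replicate numbers; the additive model already compares DOX within fractions and ALDH within treatments. No array could be left out, and precision is limited by the number of arrays.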
